A study of Mus musculus with 20 samples.

Results

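Capture Hi-C (cHi-C) of E11.5 mouse fore- and hindlimb buds was used to compare contact at the *Lbx1*/*Fgf8* locus in homozygous *Dup*, a tandem duplication made with CRISPR/Cas9, with contact in the wild-type. Of the 20 samples of the study, 8 entered this comparison, 4 *Dup* and 4 wild-type libraries. In each genotype these were 3 biological replicates and 1 technical replicate, which the authors had merged into 1 map. Both alleles of the *Dup* embryos carry the duplication, the strain label of these samples is G4 ESC (hybrid 129sv/C57Bl6 embryonic stem cells), and the mouse lines came from edited cell clones by aggregation and crosses of founders to C57BL/6. The wild-type samples carry no edit and have the strain label c57bl6.J. The labels name no treatment in either group. Whether the genetic background of the embryos differed is not settled, since the strain labels differ while a legend of the study places *Dup* in a C57Bl6 background. Genotype and the separate libraries cannot be told apart. The deposited maps were also normalized differently, which the recovered read pairs and a *Dup* map balanced like the wild-type, both described below, take out. The samples were chosen by their labelled genotype, and the bin pairs by their position relative to the breakpoints. Of the 76636 pairs of different 5-kb bins in the captured region, 74691 had both bins in both maps and were compared. With 1 merged map per genotype there was no replicate error and no test. Every ratio below is *Dup* over wild-type unless another genotype is named, and its 95% interval covers counting error only. The other genotypes set beside it in places are the homozygous inversions *Inv1* and *Inv2* (4 libraries each) and heterozygous *Dup* (1 library). Their ratios use the same wild-type map.

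In cHi-C, DNA ends that are near each other in the nucleus are ligated after fixation, ligation products from the locus are pulled out with probes, and each sequenced product counts as a read pair, so that a higher value for a pair of bins stands for more frequent proximity. Chromosomes fold into topologically associating domains (TADs), within which contact is frequent and between which it is less so. *Fgf8* encodes a growth factor made by the apical ectodermal ridge (AER), the signalling epithelium at the rim of the limb bud. Most of its known AER enhancers lie in introns of the neighbouring gene *Fbxw4*, and another lies close to *Fgf8*. The product of *Lbx1* is a homeodomain transcription factor found in the muscle precursors that migrate into the limb. A tandem duplication leaves the sequence of each copy as it was, but joins the right end of the first copy to the left end of the second, and moves everything beyond the second copy further from everything before the first. Read pairs are mapped to the reference order, so a map of *Dup* shows the sum over both copies and cannot assign a contact to one of them.

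The duplicated interval runs from 45251634 to 45792725 on chromosome 19 (mm9), 541092 bp between the cut sites of the guides. Both guide targets lie on the minus strand, each matched chromosome 19 of the mm9 genome at 1 place, and both are intergenic. They are shown, as read from the mm9 genome, because they set the ends of every region used below. The PAM is in capitals and is left out of the coordinates.
Centromeric target, chr19:45251631-45251650: cccaggaatcgccgatgacaGGG
Telomeric target, chr19:45792723-45792742: ttaaatttctccaagataagAGG
The sequence predicted at the tandem junction joins 15 bases that end at 45792725, in lower case, to 15 bases that begin at 45251634, in capitals. It is read from the reference and was not sequenced in these data.
Tandem junction, plus strand: tctgttctgcctcttCATCGGCGATTCCTG

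The bins were divided into the centromeric flank (159 bins with values), the duplication (105 bins) and the telomeric flank (121 bins), and the 2 bins that hold a breakpoint were left out. The duplication contains the starts of 6 annotated protein-coding genes, *Lbx1*, *Btrc* (the substrate-binding F-box subunit of a ubiquitin ligase), *Gm6807*, *Poll* (DNA polymerase lambda), *Dpcd* and *Fbxw4*. *Fgf8* starts 24.7 kb past the telomeric breakpoint and is not duplicated, and *Tlx1*, a homeobox gene, starts at −27.9 kb from the centromeric one, on its outer side. In the wild-type map the lowest insulation score between *Tlx1* and *Lbx1* lay at 45295000 and between *Btrc* and *Fbxw4* at 45620000. Between the start sites of *Fgf8* and *Mgea5* it lay at 45825000, within the *Mgea5* gene. These 3 positions are called the centromeric, the middle and the telomeric boundary. Just past the *Mgea5* start, at 45860000 and outside that search, the wild-type score was lower than at the telomeric boundary (−0.95 against −0.92). The duplication therefore holds a stretch of 40 kb from its left end to the centromeric boundary, the whole *Lbx1* TAD of 325 kb, and a stretch of 170 kb from the middle boundary to its right end, which contains the *Fbxw4* gene body. The remaining 30 kb of the *Fgf8* TAD, with *Fgf8* itself, lie outside it.

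CTCF, the DNA-binding protein found at many TAD boundaries, has a core consensus that matched 21 places of the captured region on either strand (14 on the plus and 7 on the minus strand), in 20 bins (5.1% of all bins). Inside the duplication there were 2 matches, both on the plus strand. The match next to the centromeric boundary is therefore present in each copy, while those next to the telomeric boundary are not duplicated. They are shown with the core in capitals and 4 flanking bases on each side.
Centromeric boundary, chr19:45297051-45297062, plus strand: ctgcCCAGCAGGTGGCccag
Telomeric boundary, chr19:45821024-45821035, plus strand: acgcCCACCAGAGGGCgcta
Telomeric boundary, chr19:45822167-45822178, minus strand: gggaCCACCAGGTGGCactg
A match is a string of letters, and CTCF binding was not measured in these maps. No match lay next to the middle boundary, where the paper reports CTCF sites in divergent orientation. The matches are therefore not a full list of the CTCF sites of the region.

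The deposited values were contact signal after bin-wise normalization, and 100% of them in both maps were whole numbers of read pairs, within 0.01, once the factor of each bin had been divided out. The *Dup* map held 13101700 read pairs and the wild-type map 7867931. Per bin pair, the median was 35 read pairs in *Dup* and 21 in the wild-type, and at distances of 500 kb or more it was 16 in *Dup* and 11 in the wild-type. Contacts at long distance are therefore the least precise. The *Dup* map was used in 2 versions. The LOIC map as deposited keeps the effect of copy number, and the balanced map was rescaled to equal bin totals, as in the wild-type map, and shows only how the contacts of a bin are divided among its partners. Both were scaled to the wild-type at each distance through bin pairs on the same side of the duplication. In the units used, these same-side pairs, with each bin paired with itself included, total 1000000 in each map. The totals of the whole maps therefore differ. As a reference, a tandem-order map was made from the wild-type map. In it, pairs present in each copy keep their wild-type contact, and pairs that the new order adds take the wild-type mean at their new distance. That mean covers the whole captured region and takes no account of boundaries. A departure from this map therefore need not be a change of folding.

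*Dup* limb buds had 2.04 times as many read pairs in a bin of the duplicated interval as the wild-type, with the flanks set to 1. Each of the 105 bins inside was above 1.5 times the level of the flanks, with a median of 2.05 and a maximum of 2.61. In the 280 flanking bins the values were between 0.696 and 1.25, with a median of 0.998, so the bins inside and outside the duplication did not overlap. At the centromeric end, the first bin inside had 1.88 and the last whole bin of the flank had 0.938. At the telomeric end, the last bin inside had 2.00 and the first bin of the flank had 0.938. The step thus lay at the guide targets to within a bin. The bin with the centromeric breakpoint had 2.41 and that with the telomeric breakpoint 1.57. The read numbers behind the step at the centromeric end were 12603 in *Dup* and 5069 in the wild-type for the first bin inside, against 63697 and 51265 for the last bin of the flank.

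**Figure D1:**
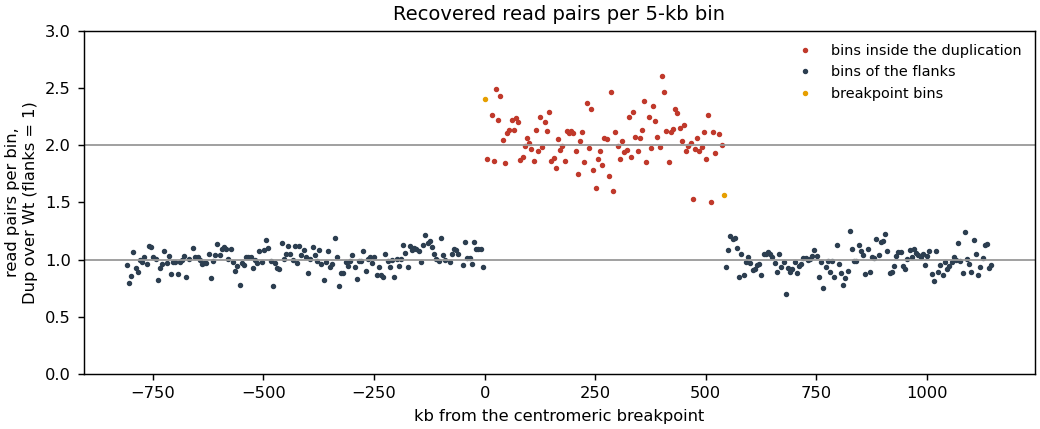
Recovered read pairs per 5-kb bin, Dup over Wt, with the flanks as a whole set to 1, against the distance from the centromeric breakpoint in kb. Each point is 1 bin, and all 105 bins inside the duplication (above 1.5) lie above all 280 bins of the flanks (at or below 1.25).

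Contact inside the duplication, as deposited, was 2.26 times the wild-type (95% counting interval 2.25 to 2.27), with means of 110 units per bin pair in *Dup* and 48.6 in the wild-type over 5460 bin pairs. Of the 5433 of these pairs with at least 10 read pairs in each map, 5427 (99.9%) were at or above 1.5-fold and 4884 were at or above 2-fold, while over the whole map 29.3% of 53634 bin pairs were at or above 1.5-fold and 13.9% at or above 2-fold. None inside was at or below 1 over 1.5-fold, where the whole map had 5.87%. After balancing, the ratio inside was 1.01, which balancing largely fixes, and 654 (12.0%) were at or above 1.5-fold against 4.25% of the whole map. The tandem-order map gave 2.34 as deposited and 1.01 balanced. As a whole the interval was therefore at 0.964 times that reference as deposited and 0.998 times balanced.

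**Figure D2:**
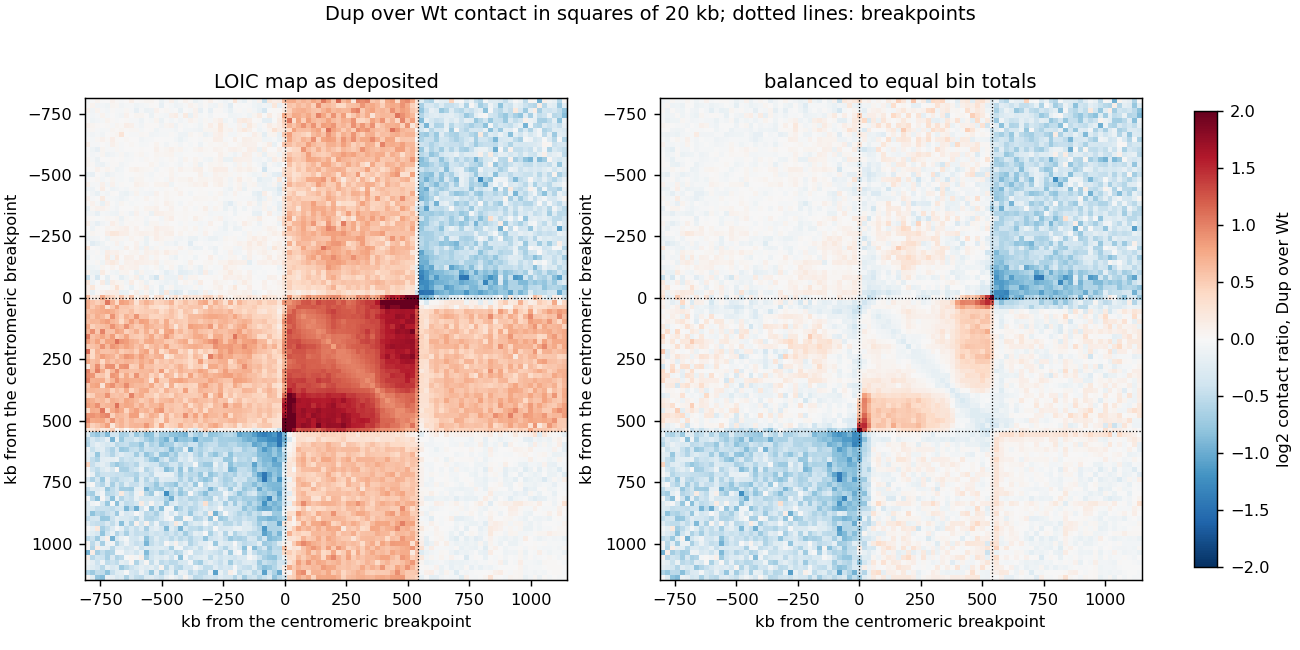
Contact of Dup over Wt on a log2 scale, in squares of 20 kb, for the LOIC map as deposited (left) and the balanced map (right), with both axes in kb from the centromeric breakpoint and dotted lines at the breakpoints. Contact inside the duplication is 2.26-fold as deposited and 1.01-fold balanced, the corners where its ends meet stand out in both, and the blocks between the flanks are lower in both (0.675 and 0.684).

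Within the duplication, the ratio was uneven and was higher the further apart the bins lay. Bins up to 50 kb apart had 298 units in *Dup* and 148 in the wild-type, a ratio of 2.02 as deposited and 0.902 balanced. Bins 200 to 250 kb apart had 56.6 units in *Dup* and 22.1 in the wild-type, a ratio of 2.56 as deposited and 1.15 balanced. Those 400 to 450 kb apart had 59.7 units in *Dup* and 16.1 in the wild-type, a ratio of 3.70 as deposited and 1.62 balanced. In *Dup*, mean contact was lowest at 250 to 300 kb, at 52.6 units, and was 148 units at 500 to 535 kb. In the wild-type it was lowest at 500 to 535 kb, at 14.1 units. Bins that far apart lie at opposite ends of the interval and, across the tandem junction, within 41 kb of each other. Their ratio was 10.5 (8.82 to 12.5) as deposited and 4.40 (3.70 to 5.22) balanced, from 2774 *Dup* and 239 wild-type read pairs. The tandem-order map gave 10.5 for these pairs, and over all distance ranges the observed contact was between 0.901 and 1.00 times that map, lowest at 400 to 450 kb.

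**Figure D3:**
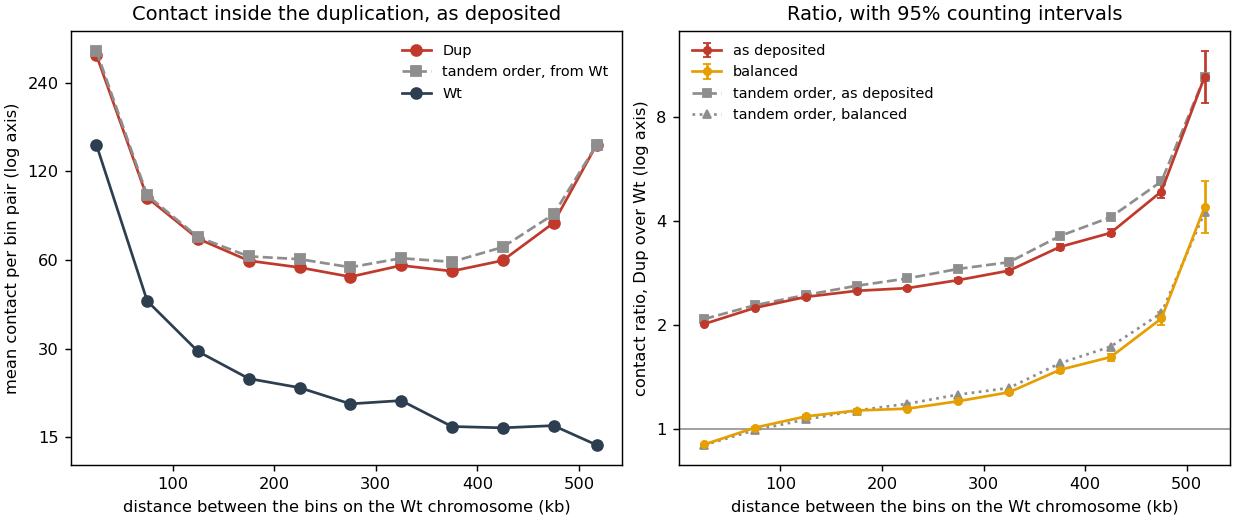
Contact inside the duplication against the distance between the bins on the wild-type chromosome, in kb. The left panel gives mean contact per bin pair on a log axis for Dup, the tandem-order map and Wt, and the right panel the ratio of Dup over Wt on a log axis for both map versions with 95% counting intervals and both versions of the tandem-order map. Dup contact is lowest at 250 to 300 kb (52.6 units) and is 148 units at 500 to 535 kb, where Wt has 14.1.

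The ends of the duplicated interval, which meet at the tandem junction, had the highest ratio of the blocks compared. Over the 139 bin pairs that the tandem order places within 100 kb of each other across the junction, contact was 5.08 times the wild-type as deposited (4.90 to 5.26), with means of 83.0 units in *Dup* and 16.3 in the wild-type from 40429 and 7115 read pairs. Balanced, the ratio was 2.17 (2.10 to 2.25). The tandem-order map gave 5.44 and 2.26. All 125 of these pairs with enough read pairs were at or above 2-fold as deposited, where the whole map had 13.9%, and 91 (72.8%) were at or above 1.5-fold after balancing, where it had 4.25%. The single bin pair with the highest balanced ratio, 4.30, joined the bin from 45285001 to 45290000, before the centromeric boundary, with the last bin of the duplication, from 45785001 to 45790000. It held 194 read pairs in *Dup* and 13 in the wild-type. Among the 100 bin pairs with the highest balanced ratios, which were picked for their values, 64 lay inside the duplication, 36 of them within 100 kb across the junction, and none lay between the flanks. Of all 53634 bin pairs with enough read pairs, 10.1% lay inside, 0.233% within 100 kb across the junction and 9.68% between the flanks.

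Contact across the junction decayed with distance, as wild-type contact does. To approximate it, 2 times the wild-type value was subtracted from the *Dup* value of each bin pair, for the contact within each copy. The remainder still holds contact between the outer ends of the 2 copies, so it overstates contact across the junction. The tandem-order map includes both terms. Total contact was 1.07 times that map at 20 to 30 kb, 0.868 times at 75 to 100 kb and 0.937 times at 200 to 300 kb. At 20 to 30 kb across the junction the subtraction left 132 units, where the wild-type mean at that distance was 119. At 50 to 75 kb it left 51.0 units against a wild-type mean of 52.7, and at 75 to 100 kb 32.4 against 39.8. At 200 to 300 kb it left 14.8 units against 15.3. Divided by the wild-type mean, the remaining contact was between 0.814, at 75 to 100 kb, and 1.11, at 20 to 30 kb, over the 8 distance ranges from 10 to 300 kb. The nearest range, 10 to 20 kb, rested on 2 bin pairs with 261 read pairs in *Dup* and 9 in the wild-type, and its interval of the ratio was 11.2 to 43.5.

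By domain, the 40 kb at the left end of the duplication and the 170 kb at its right end, which become neighbours, had the highest ratio. Their contact was 4.47 times the wild-type as deposited (4.37 to 4.57), with means of 97.4 units in *Dup* and 21.8 in the wild-type, and 1.92 times balanced. The tandem-order map gave 3.93 and 1.66, so the observed contact was 1.14 and 1.16 times that reference. Of the 215 bin pairs with enough read pairs, 180 (83.7%) were at or above 1.5-fold in the balanced map, against 4.25% of the whole map. The *Lbx1* TAD and the 170 kb with *Fbxw4*, which lie on both sides of the middle boundary, had a ratio of 2.80 as deposited and 1.25 balanced (1.25 to 1.26), where the tandem-order map gave 3.03 and 1.31. Of 2143 pairs, 460 (21.5%) were at or above 1.5-fold balanced, against the same 4.25%. The ratio across the middle boundary was thus below its tandem-order value, and that between the 40 kb and the 170 kb was above it. For the bin pairs within 100 kb across the junction the ratio was below it, at 0.934 times as deposited and 0.964 times balanced. The direction at the ends therefore depended on which bin pairs were taken.

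Contact within the *Lbx1* TAD itself was 2.13 times the wild-type as deposited and 0.967 times balanced, and only 2 of its 2080 bin pairs were at or above 1.5-fold in the balanced map, a share below the 4.25% of the whole map. Within the 170 kb with *Fbxw4* the ratio was 2.02 as deposited and 0.887 balanced. The 40 kb at the left end had 2.06 with themselves and 2.34 with the *Lbx1* TAD as deposited. Bins inside each copy thus had close to 2 times the wild-type contact at short distance, and the ratios furthest above 2 were those between domains.

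The insulation score of a position is the mean contact of its left 100 kb with its right 100 kb, as a log2 ratio to the average score of the map, and was taken from the balanced maps. Lower scores stand for stronger separation. At the middle boundary it was −0.42 in *Dup* and −0.58 in the wild-type. This difference of 0.16 was the most positive among the 353 positions scored, and with windows of 200 kb it was 0.23. The tandem-order map, in which each copy keeps its wild-type contacts, differed from the wild-type by 0.13 and 0.22 at this position. At the centromeric boundary the score was −0.71 in *Dup*, −0.57 in the wild-type and −0.69 in the tandem-order map. At the telomeric boundary it was −0.85, −0.92 and −0.89. With windows of 200 kb the telomeric boundary had −0.64 in both *Dup* and the wild-type, so its difference was not seen at that window. The most negative difference of the map lay next to the centromeric breakpoint, at 45255000, with −0.54 in *Dup* and −0.26 in the wild-type. The tandem-order map had −0.59 there, lower than *Dup*. The median difference over positions inside the duplication was 0.01. Each of the 3 wild-type boundaries was also the lowest score within 20 kb in the *Dup* map.

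Contact of the duplication with its flanks, as deposited, was 1.42 times the wild-type (1.41 to 1.42). With the centromeric flank it was 1.44 (means of 6.62 units in *Dup* and 4.61 in the wild-type) and with the telomeric flank 1.40 (10.3 and 7.38 units). A locus with 2 copies at an unchanged distance would have 2.00, and the tandem-order map, in which 1 of the copies is 541 kb further away, gave 1.44 and 1.31. Near the breakpoints the ratios were lowest. At 50 to 100 kb they were 1.23 on the centromeric side and 1.20 on the telomeric side, and at 400 to 500 kb 1.47 and 1.48. Of 22679 bin pairs with enough read pairs, 9610 (42.4%) were at or above 1.5-fold as deposited, against 29.3% of the whole map. Balanced, the ratio was 0.963 (0.960 to 0.966), the tandem-order map gave 0.914, and 1105 pairs (4.87%) were at or above 1.5-fold and 1970 (8.69%) at or below 1 over 1.5-fold. These shares were close to the 4.25% and 9.33% of the whole balanced map. The direction of the balanced ratio depended on the scaling. With all bin pairs outside the duplication in the factors, as in the methods of the study, it was 1.08, and over the whole balanced map 6371 bin pairs were at or above and 1732 at or below the threshold, against 2277 and 5005 in the main setting.

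The flanks made less contact with each other across the duplication in *Dup* than in the wild-type. The ratio was 0.675 (0.670 to 0.679) over 19239 bin pairs, from 177132 read pairs in *Dup* and 205842 in the wild-type. Balanced it was 0.684. Of the 5192 bin pairs with enough read pairs in both maps, 2452 (47.2%) were at or below 1 over 1.5-fold in the balanced map, against 9.33% of the whole map, and 23 (0.443%) were at or above 1.5-fold, against 4.25%. The ratio was lowest for the nearest bins. At 500 to 600 kb contact was 4.69 units in *Dup* and 13.8 in the wild-type, a ratio of 0.340 (0.324 to 0.357), and at 600 to 700 kb it was 3.35 and 7.23 units, a ratio of 0.464. At 900 to 1200 kb the ratio was 0.682 and beyond 1200 kb 0.767. Between the last 200 kb before the centromeric breakpoint and the 30 kb with *Fgf8*, contact was 3.65 units in *Dup* and 8.70 in the wild-type, and 181 of 221 bin pairs (81.9%) were at or below 1 over 1.5-fold in the balanced map, against the same 9.33%.

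This ratio depended on the scaling, and it was closer to 1 than in the tandem-order map. If all bin pairs outside the duplication set the factors, as in the methods of the study, the pairs between the flanks help to set their own scale, and the ratio was 0.953. Up to 700 kb, where every distance had a factor from pairs on the same side of the duplication, it was 0.434, a restriction chosen after the values were seen. The tandem-order map gave 0.547 over all distances and 0.151 at 500 to 600 kb, so that observed contact was 1.23 times and 2.25 times that reference. At 500 to 600 kb the maps of other genotypes gave 1.03 in *Inv1* and 0.929 in *Inv2*, homozygous inversions that keep the distance between the flanks. Heterozygous *Dup* gave 0.318, which is below the 0.340 of homozygous *Dup* and not between it and the wild-type. It is a single library of 3350758 read pairs that is titled as such but whose genotype label names a heterozygous inversion. Beyond 1200 kb *Inv1* gave 1.37, *Inv2* 1.22 and heterozygous *Dup* 1.05. These ratios share the wild-type map, and at long distance those of *Inv1* and *Inv2* lay above 1 while that of *Dup* lay below it. The part of library differences in the *Dup* ratio was not tested.

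**Figure D4:**
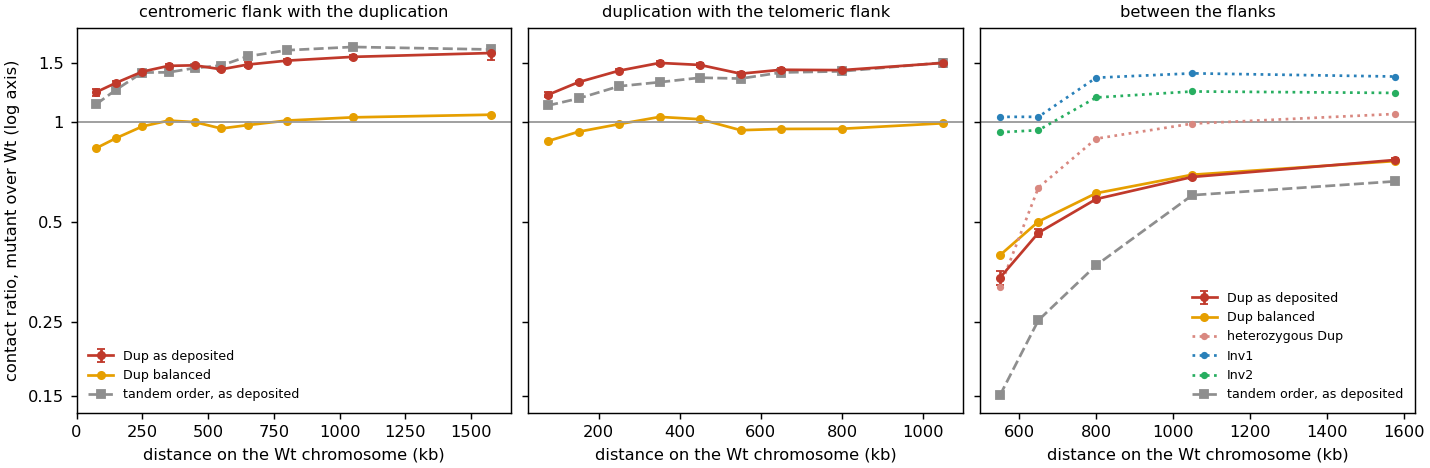
Contact ratio of mutant over Wt on a log axis against the distance between the bins on the wild-type chromosome in kb, for the centromeric flank with the duplication, the duplication with the telomeric flank, and the flanks with each other. Points are Dup as deposited with 95% counting intervals, Dup balanced and the tandem-order map, and the right panel adds heterozygous Dup, Inv1 and Inv2. Between the flanks, Dup is at 0.340 at 500 to 600 kb and 0.767 beyond 1200 kb, while Inv1 and Inv2 are at 1.03 and 0.929 at 500 to 600 kb.

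Within the flanks, contact served to scale the maps, so the ratio over both flanks was 1.00 by construction. It was 1.01 within the centromeric flank and 0.988 within the telomeric flank as deposited, and 0.999 and 1.00 balanced. Balancing nevertheless moved contact inside the flanks next to the duplication. In the 30 kb with *Fgf8* the ratio was 0.978 as deposited and 1.23 balanced, and the tandem-order map, whose flank contacts are those of the wild-type before balancing, also gave 1.25 after it. The contact of these 30 kb with the next 200 kb was 1.01 as deposited and 1.17 balanced (1.16 in the tandem-order map). Values well above 1 in these places were thus seen in the balanced version of both maps and in neither unbalanced one.

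Promoters inside the duplication had more contact with the duplicated interval, with ratios between 2.17 and 2.44 as deposited over 6 genes in 5 bins (median 2.35) and between 0.979 and 1.07 balanced. The shared bin of *Poll* and *Dpcd* was highest at 2.44, *Lbx1* had 2.39 (2.35 to 2.42) and *Fbxw4* 2.32 (2.27 to 2.38). *Gm6807* had 2.27 and *Btrc* 2.17 (2.13 to 2.22). The order of the lowest genes was not stable. With viewpoints of 3 bins, *Btrc* had 2.30, beyond its interval, and *Gm6807* 2.24.

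Contact of these promoters with the *Fbxw4* gene body, which bears most of the known AER enhancers, differed between the genes of the *Lbx1* TAD and the rest. *Lbx1* had 48.8 units in *Dup* and 16.2 in the wild-type, a ratio of 3.01 (2.85 to 3.17) from 7898 and 1853 read pairs. *Btrc* had 41.1 and 14.3 units, a ratio of 2.88 (2.63 to 3.15), and *Gm6807* 44.0 and 15.1 units, a ratio of 2.91 (2.73 to 3.09). Balanced, these were 1.32, 1.28 and 1.31. The intervals of the 3 genes overlapped. *Poll* and *Dpcd*, which lie past the middle boundary on the side of *Fbxw4*, had 2.23 as deposited and 0.977 balanced, and the *Fbxw4* promoter had 2.03 and 0.886 with its own gene body. The tandem-order map gave 3.66 for *Lbx1*, 3.19 for *Btrc* and 2.92 for *Gm6807*, so *Lbx1* was furthest below it. The *Fbxw4* promoter and the 40 kb at the left end of the duplication had a ratio of 5.03 (4.16 to 6.08), with 90.5 units in *Dup* and 18.0 in the wild-type, against 4.40 in the tandem-order map.

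*Fgf8*, outside the duplication, and the *Fbxw4* gene body had a ratio of 1.22 as deposited (1.17 to 1.26), with 61.8 units in *Dup* and 50.8 in the wild-type. Balanced this was 0.914, and the tandem-order map gave 1.08 as deposited. *Npm3*, a nucleolar chaperone gene next to it, had 1.23. With the *Lbx1* TAD, *Fgf8* had 23.6 units in *Dup* and 18.6 in the wild-type, a ratio of 1.27 (1.23 to 1.31). With the centromeric flank it had 2.06 and 4.10 units, a ratio of 0.502 (0.477 to 0.528), and with its own flank 1.01 (0.984 to 1.04). Whether *Fgf8* contact with its enhancer interval was above or below the wild-type thus turned on whether copy number was kept.

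Over the other promoters, contact with the duplicated interval as deposited was above the wild-type for each of the 15 genes of the centromeric flank (in 13 bins), with a median ratio of 1.52 and a range of 1.24 to 1.62, and for each of the 13 genes of the telomeric flank (in 12 bins), with 1.43 and 1.18 to 1.56. Balanced, 7 of the 15 and 2 of the 13 were above 1. These balanced counts hold for the main scaling only, since the balanced ratio of the whole block changed direction with the scaling. The highest ratios were those of *Sema4g* (1.62), a semaphorin gene, of *Mrpl43* and *Peo1*, which share a bin (1.61), and of *Ndufb8* (1.61), all 170 kb or more from the duplication. With viewpoints of 3 bins *Mrpl43* and *Peo1* had 1.51. The lowest were those of *Npm3* (1.18), *Fgf8* (1.21) and *Tlx1* (1.24), each within 32 kb of a breakpoint. *Kazald1* (1.41), *Sfxn3* (1.39) and *Mgea5* (1.30) were also close by, while *Pax2*, a paired-box gene of the kidney and ear, and *Pitx3*, a homeobox gene of the lens, lay farther out at 1.48 and 1.47. The nearest promoters thus had the lowest ratios on both sides, as they had in the tandem-order map, while further out the order was mixed.

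Contact of the same promoters with the opposite flank was below the wild-type for all 15 and all 13 genes in both map versions. Both versions used the main scaling, and these contacts are part of the block between the flanks, whose ratio depended on the scaling. The genes of a side also share the bins of the opposite flank, so they are not independent. The genes of the centromeric flank had a median ratio of 0.689 with the telomeric flank (lowest 0.562) and those of the telomeric flank 0.683 with the centromeric flank (lowest 0.492). *Tlx1* had 2.70 units in *Dup* and 4.81 in the wild-type, the lowest ratio of its side at 0.562 (0.519 to 0.608), and *Npm3* 1.91 and 3.88 units, the lowest of the other at 0.492 (0.469 to 0.516).

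**Figure D5:**
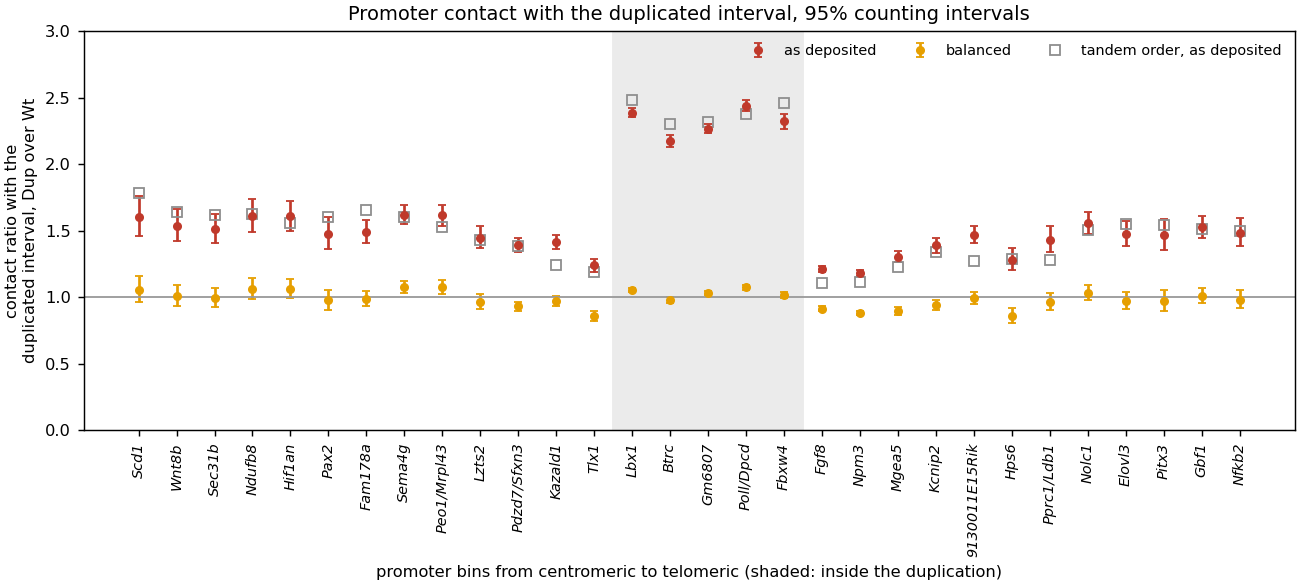
Contact of each promoter bin with the duplicated interval, Dup over Wt, in order along the chromosome, as deposited and balanced with 95% counting intervals, and in the tandem-order map (squares). The 5 bins inside the duplication (shaded) are between 2.17 and 2.44 as deposited, and all bins outside are between 1.18 and 1.62.

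In the other maps of the series, the same measures were as follows. Read pairs per bin inside the interval were 1.57 times the wild-type in heterozygous *Dup*, 1.02 in *Inv1* and 1.02 in *Inv2*. Contact over the whole interval was 1.63 in heterozygous *Dup*, 0.986 in *Inv1* and 0.983 in *Inv2*. For the bin pairs across the tandem junction the ratios were 2.79, 1.14 and 2.30, so these pairs were also above the wild-type in *Inv2*. *Inv2* shares a breakpoint region with *Dup* at the telomeric end and is rearranged within the interval. All of these ratios use the same wild-type map as *Dup*.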

How the data were processed

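The bin pairs, genes and domains were chosen with earlier results of these data known. The deposited values are contact signal of merged replicates, for which the authors trimmed reads to 50 bp where needed, mapped them to mm9 with HiCUP and Bowtie2 2.4.2, kept deduplicated read pairs with a mapping quality of at least 30, and binned them at 5 kb with Juicer tools 1.19.02. The wild-type map was Knight-Ruiz balanced, so that all bins have about equal totals, and the *Dup* map was LOIC normalized with copy number 4 inside the duplication and 2 elsewhere. Reads were not remapped. Files of differences between genotypes hold the authors' own comparison and were not used.

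Bin factors were divided out to recover read pairs. For each version, *Dup* and wild-type were scaled jointly at every distance through bin pairs with both bins in the same flank. Distances with fewer than 20 such pairs, beyond 700 kb, took 1 factor pooled over all distances. The total over pairs with both bins in the same flank was then set to 1000000 in each map. A ratio is the mean of *Dup* over that of the wild-type, with a 95% interval of 1.96 standard errors of its logarithm from read pairs. Bin pairs were counted past 1.5-fold if both maps held 10 read pairs. The tandem-order map used the wild-type mean by distance, extended beyond 1750 kb by a power law, and was balanced like the *Dup* map where set beside it. A promoter was the bin of the gene start in the GENCODE annotation of mm9, without its own and adjacent bins.

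The named genes were all those starting inside the duplication, the 3 nearest outside each breakpoint, *Fgf8*, *Pax2*, *Tlx1*, *Pitx3*, and the 3 outside promoters with the highest and lowest ratio with the duplicated interval (*Mrpl43* and *Peo1* share a bin). In the annotation *Oga* is named *Mgea5* and *Twnk* *Peo1*. Guide positions are exact matches in mm9. On 20 simulated *Dup* and wild-type maps with a known tandem order, the mean ratio of each of 5 blocks was within 0.837% of the truth, and 100% of 74771 read numbers were recovered. These maps were drawn from the tandem-order map itself, without balancing and without differences between libraries. They check the calculation and cannot show which scaling is right. Python 3.11.15, numpy 2.4.6 and matplotlib 3.10.9 were used.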

Additional observations from a re-analysis of the deposited data

How the results depend on the processing

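No paired analysis was possible because each genotype has 1 merged map, and for the same reason no replicate could be left out and the spread between limb buds is unknown. Intervals cover counting error, which is narrow for most blocks, and 44 of 56 alternative values for blocks and counts lay beyond it, or beyond 1.5 times a count, while 12 did not. With 1 factor for all distances, contact inside the duplication was 2.28 as deposited and 1.02 balanced, across the junction 4.88 and 2.09, of the duplication with the flanks 1.39 and 0.948, and within the flanks 1.01. With the median of bin pair ratios these were 2.46 and 1.10 inside, 4.62 and 2.00 across the junction, 1.49 and 0.997 with the flanks, and 0.697 between the flanks. With 25 kb left out at each breakpoint they were 2.23 and 0.9995, 4.02 and 1.75, and 1.47 and 0.990, with 0.701 between and 0.995 within the flanks, and read pairs per bin were 2.05. With bin pairs of 10 read pairs or more they were 2.25 and 1.01, 4.61 and 1.99, and 1.37 and 0.939, with 0.617 between the flanks. Even and odd bins gave 2.02 and 2.06 for read pairs per bin. With all bin pairs outside the duplication in the factors, contact of the duplication with the flanks was 1.60 and 1.08, so that the balanced value lay on the other side of 1, between the flanks 0.953 and within the flanks 1.00. The balanced map gave 0.684 between the flanks and distances up to 700 kb 0.434. Bin pairs at or above 1.5-fold in the balanced map, 2277 in all, were 6371 with these factors, 6475 with 1 read pair as the minimum and 283 at 2-fold. Those at or below 1 over 1.5-fold, 5005 in all, were 1732, 11921 and 1328. Of 136 alternative values for promoters, 126 stayed within their interval, 10 moved beyond it, by at most 1.10 times, and 0 changed direction. These counts do not settle how promoter ratios depend on the scaling. The flank promoters belong to the block of the duplication with the flanks, whose balanced ratio changed direction with the scaling.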
